A study of Nothobranchius furzeri with 8 samples.

Results

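Lysosomes are acidic organelles in which soluble hydrolases take apart lipids, glycogen and proteins delivered by endocytosis and autophagy. Their limiting membrane is lined by glycosylated proteins that shield it from the enzymes inside. The brain depends on them heavily, since loss of single lysosomal enzymes in humans causes storage diseases that damage neurons, myelin or muscle. Here 4 lysosomal genes of the killifish Nothobranchius furzeri are described, out of 23546 genes in the deposited table. They are arsa, gm2a and gaa, which encode soluble proteins of the lysosome, and lamp1, which encodes a protein of its membrane. They were selected on the study's own comparison of expression in these same fish, in which they were listed as changed. Their differences between the groups are therefore given as values without a test of their own. Calls of these genes in the fit over all genes are given only as a description.

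Brain RNA came from 4 wild-type fish of the strain MZM-04/10p and from 4 sponge-29 fish of the genotype kif5a::miR-29sponge, all aged 12 weeks. Sponge-29 fish carry, on the same strain background, a zebrafish kif5aa promoter fragment that drives eGFP fused to repeated miR-29 binding sites in neurons, so that miR-29 is titrated away from its targets. The transgenic fish were F1 animals, and the sources used here do not say from which founder each descends, so fish of a group may share a parent. Whole brain was sequenced, so a change in all cells cannot be told apart from a change in the share of the cells that express a gene.

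Libraries 42 to 45 are wild-type and 46 to 49 are sponge-29. Counts per library lay between 18014090 and 24902251, and every sponge-29 total was below every wild-type total (exact permutation test, two-sided, p = 0.0286, the lowest value possible for 8 fish). The part of this depth gap in the results was not tested. Among 19536 genes tested, edgeR's quasi-likelihood test called 12.0%, and 6.15% were called higher in sponge-29. This number depends strongly on single fish, with 2341 genes called in all, 427 without library 45 and 441 without library 47. Of the marker genes fixed for neurons, snap25a, stmn2a and nefl have an identifier and were detected in every library.

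All 4 genes were expressed above the median gene of the table when scaled to length, with lamp1 far ahead of the soluble proteins. Per length, lamp1 reached 63.1 ± 3.39 RPKM in wild-type and 84.6 ± 4.92 RPKM in sponge-29 (SD, n = 4). LAMP1 is among the most abundant glycoproteins of the lysosomal membrane in mammals. The level of gm2a was 16.1 ± 1.23 RPKM in wild-type and 21.9 ± 2.10 RPKM in sponge-29. That of arsa was 9.85 ± 0.985 and 12.8 ± 0.738 RPKM, and that of gaa 7.82 ± 0.537 and 10.2 ± 1.04 RPKM. The median over all genes of the table was 4.98 RPKM. On the mean over all 8 libraries, 96.2% of genes lay below lamp1, 81.5% below gm2a, 69.9% below arsa and 64.1% below gaa.

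The order of levels per length was the same in each of the 8 libraries. Each of the 6 pairs of genes kept its direction in all 8 (exact sign-flip permutation test of the log2 ratio, two-sided, p = 0.00781 for every pair, adjusted p = 0.00781 over 6 pairs, the lowest value that 256 sign flips allow). The plan set no test of levels, so this one is an addition. Its p is the same for close and for distant pairs and says nothing on the size of a difference. The closest neighbours were arsa and gaa, whose ratio ran from 1.00 to 1.43. Their RPKM values nearly coincided in wild-type library 43, at 8.50 for arsa and 8.49 for gaa. With counting errors of 5.16% and 4.21% there, the order of these genes in that library is not resolved. The steadiest ratio was that of lamp1 to gm2a, between 3.57 and 4.15. The order of the soluble proteins depends on the scaling to length. In CPM it was reversed, with wild-type means of 21.7 for gaa, 18.2 for arsa and 9.48 for gm2a. Since counting rules for shared reads are not given, levels of different genes may be biased differently. A bias that a gene carries in every library is not tested by repeating libraries.

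**Figure D1:**
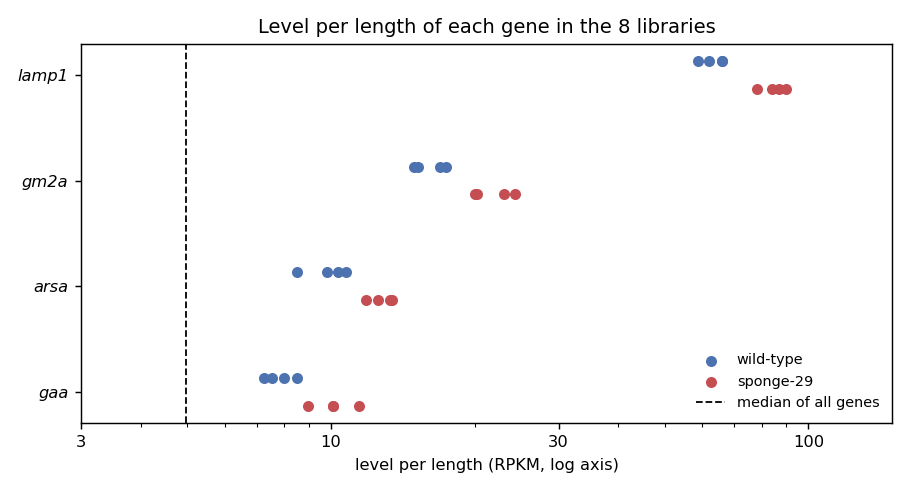
Level per length of each gene (RPKM, log axis), 1 point per library, with wild-type in blue, sponge-29 in red and the median of all genes as a dashed line at 4.98 RPKM. The genes are ordered from lamp1 to gaa, and every point lies right of the dashed line.

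The gene gm2a (Nfu_g_1_004746, 594 bases in the annotation used) encodes the GM2 activator, a small protein that lifts the ganglioside GM2 out of the membrane for hexosaminidase A. Its normalized counts were 10.2, 9.91, 8.80 and 9.04 CPM in wild-type libraries 42 to 45, and 12.3, 13.8, 11.9 and 14.8 CPM in sponge-29 libraries 46 to 49. The groups did not overlap, and the lowest sponge-29 fish was 1.17 times the highest wild-type fish. The log2 fold change was 0.48 (standard error 0.11), the largest among these genes. It rests on the fewest reads, between 212 and 268 per library, so that counting error alone amounts to between 6.11% and 6.87%. The coefficient of variation among wild-type fish was 6.93%, close to this counting error, and that among sponge-29 fish was 10.1%.

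The gene arsa (Nfu_g_1_008440, 1867 bases) encodes arylsulfatase A, which removes the sulfate of sulfatide, a lipid of the myelin sheath. Wild-type libraries 42 to 45 had 19.0, 15.6, 19.9 and 18.3 CPM, and sponge-29 libraries 46 to 49 had 25.7, 24.9, 22.1 and 23.9 CPM. Wild-type library 43 was the lowest, and the smallest sponge-29 value was 1.11 times the largest wild-type value. The log2 fold change was 0.41 (standard error 0.09). Without library 43 it fell to 0.34, the lowest value for arsa when single libraries were left out.

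The gene gaa (Nfu_g_1_019523, 2805 bases) encodes acid alpha-glucosidase, which breaks down glycogen in the lysosome. In wild-type libraries 42 to 45 it had 20.0, 23.4, 21.0 and 22.4 CPM, and in sponge-29 libraries 46 to 49 it had 29.1, 28.5, 32.2 and 25.7 CPM. The groups were apart by the narrowest margin of these genes, a ratio of 1.09 between library 49 and library 43. Library 48 was the highest for gaa, although it was the lowest sponge-29 library for gm2a, arsa and lamp1. The log2 fold change was 0.41 (standard error 0.09), or 0.35 without library 48.

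For lamp1 (Nfu_g_1_005891, 1757 bases), normalized counts were 114, 114, 108 and 103 CPM in wild-type libraries 42 to 45. In sponge-29 libraries 46 to 49 they were 151, 159, 137 and 156 CPM. The gap was the widest of these genes, with the lowest sponge-29 fish at 1.20 times the highest wild-type fish. The log2 fold change of 0.46 had the smallest standard error, 0.06. Between 2421 and 3105 reads were counted per library, which leaves a counting error of at most 2.03%. Fish of a group differed by more than that, with coefficients of variation of 4.58% in wild-type and 6.32% in sponge-29.

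**Figure D2:**
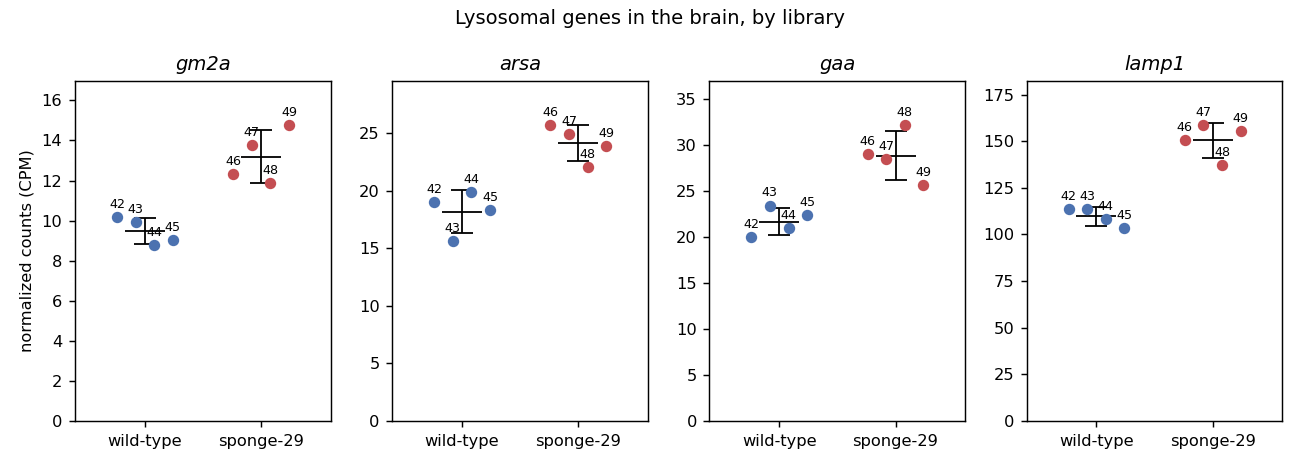
Normalized counts (CPM, from 0) of each gene, 1 point per library with its number, and mean ± SD of 4 fish as bars. In each panel the 4 sponge-29 points lie above the 4 wild-type points, with the narrowest gap for gaa and the widest for lamp1.

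The sponge-29 group thus had more of all 4 transcripts, by similar amounts. The log2 fold changes ran from 0.41 to 0.48 with a median of 0.43, against -0.01 over all genes tested. The range among them is smaller than the standard error of gm2a. Ratios between the genes hardly moved between groups. The ratio of lamp1 to gm2a was 3.92 ± 0.163 in wild-type and 3.87 ± 0.232 in sponge-29 (SD, n = 4), and that of arsa to gaa was 1.27 ± 0.203 and 1.27 ± 0.163. These amounts are ordinary for a called gene, since genes called higher had a median log2 fold change of 0.42. All 4 genes were called in the fit over all genes, where 6.15% were called higher, and all 4 had groups that do not overlap, as did 11.4% of genes in this direction. Nothing is read from these counts, since the list was drawn from the same contrast.

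Gene length moved with the group difference in these libraries. Genes within 1.1-fold of the length of gm2a had a median log2 fold change of 0.15, while it was 0.03 for arsa, 0.04 for lamp1 and 0.02 for gaa. After removal of the length trend from each library, the log2 fold changes were 0.42 for gm2a (standard error 0.10), 0.38 for arsa (0.11), 0.43 for lamp1 (0.06) and 0.41 for gaa (0.09). The order changed, with lamp1 now first. The gene arsa was not called in that edgeR fit, in which 4.98% of all genes were called higher.

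With each library left out in turn, the log2 fold changes moved little, from 0.43 to 0.49 for lamp1, 0.42 to 0.52 for gm2a, 0.34 to 0.46 for arsa and 0.35 to 0.46 for gaa. The calls were less steady in these 8 fits, which hold fewer fish. The gene lamp1 was called in 8 of them, gm2a in 4, arsa in 3 and gaa in 3. The number of all genes called also swung with the library left out, from 427 to 2125. All 4 genes stayed called without library 43 (2125 genes called) or 48 (2018). Only lamp1 stayed called without library 45 (427) or 47 (441). The calls of the 4 genes thus moved with those of all genes.

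**Figure D3:**
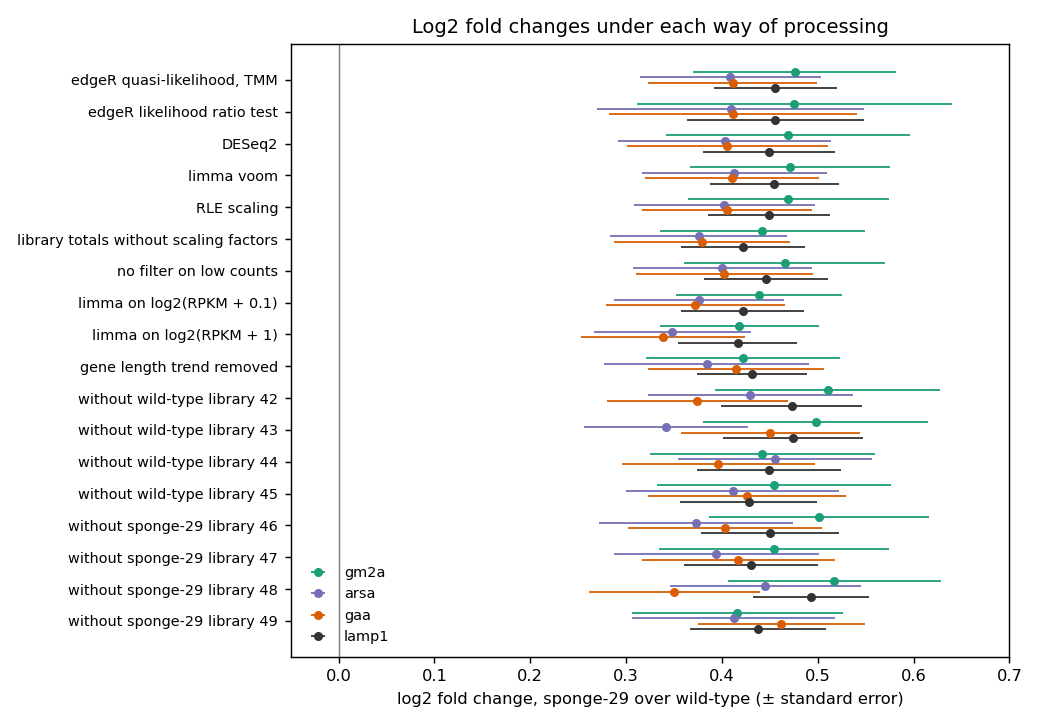
Log2 fold change of sponge-29 over wild-type with its standard error, for each gene (colours) under each processing setting and with each library left out. All values lie between 0.34 and 0.52.

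Among fish of the same group, gm2a and lamp1 varied together, while the other pairs did so in 1 group or in neither. The within-group SD of log2 CPM was 0.13 for arsa, 0.12 for gm2a, 0.12 for gaa and 0.08 for lamp1. Genes of like abundance (within 1.5-fold in CPM) had median SDs of 0.15, 0.19, 0.15 and 0.11, so each of the 4 varied less than most genes of its level. This spread enters the test that chose the genes, so a low value was favoured by the choice. Which fish lie above or below their group mean was not used. Deviations from the group mean were then compared between genes over the 8 libraries, as a description without a test. The values of r are not set against those of other pairs of genes, so they show no link particular to lysosomal genes. The genes gm2a and lamp1 deviated together (Pearson's r = 0.82, and 0.82 and 0.81 within wild-type and within sponge-29). In contrast, gaa deviated against gm2a (r = -0.63), against arsa (r = -0.62) and against lamp1 (r = -0.58). With any 1 library left out these values stayed negative, between -0.87 and -0.17. Within sponge-29, r was -0.92 for gaa with gm2a and -0.82 for gaa with lamp1, but within wild-type it was near 0, at -0.08 and -0.14. For gaa with arsa, r was -0.82 in wild-type and -0.47 in sponge-29. The pairs arsa with lamp1 (r = 0.13) and arsa with gm2a (r = -0.12) had no stable sign when libraries were left out, and r was negative in wild-type and positive in sponge-29 for both.

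By fish, the largest deviations were those of libraries 43, 48 and 49. In sponge-29 library 48, gm2a, arsa and lamp1 were at -0.14, -0.13 and -0.13 from their group means on the log2 scale, while gaa was at 0.16. In sponge-29 library 49, gaa was at -0.16 while gm2a was at 0.17 and lamp1 at 0.05. Among wild-type fish, library 43 had arsa at -0.21, gaa at 0.11, gm2a at 0.07 and lamp1 at 0.05, so gaa lay on the side of gm2a and lamp1 there. Within groups of 4, each r rests on few fish, and all genes of a library share its depth and scaling. The coefficient of variation of gm2a among wild-type fish, 6.93%, was close to its counting error of up to 6.87%. Its deviations there may therefore hold much counting error. Counting error of arsa in sponge-29 libraries was up to 4.87%, against a coefficient of variation of 6.46%. For gaa in wild-type libraries it was up to 4.76%, against 6.97%. The deviations of arsa and gaa may thus hold counting error too. With the length trend removed, an alternative added after seeing the data, r was 0.58 for gm2a with lamp1, -0.80 for gm2a with gaa, -0.63 for lamp1 with gaa and -0.16 for arsa with gaa.

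**Figure D4:**
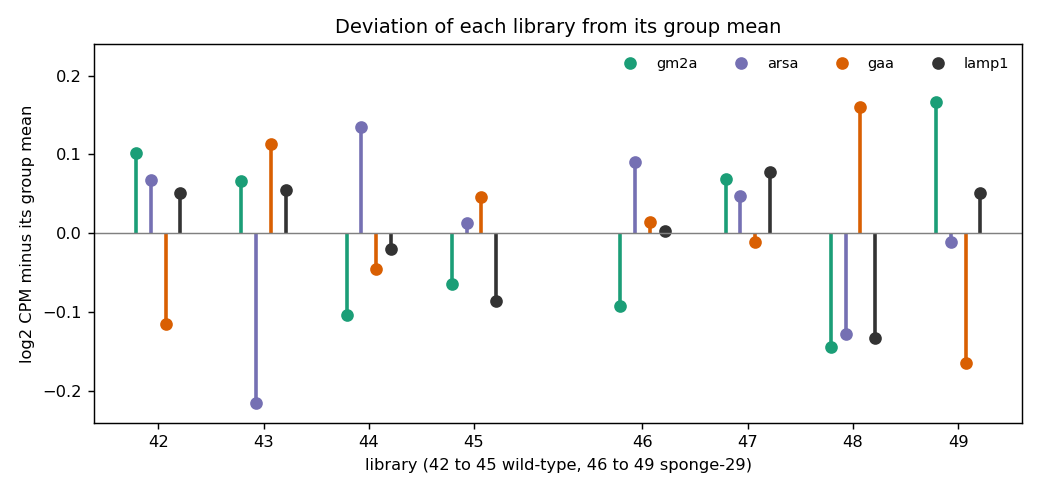
Deviation of log2 CPM of each gene from the mean of its own group, by library. In library 48 the bar of gaa points up (0.16) and the other bars down, and in library 49 gaa points down (-0.16) while gm2a (0.17) points up.

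Of 1417 other genes with a symbol, those whose within-group deviations came closest to each gene were as follows (Pearson's r over 8 libraries, a description). For lamp1 they were tspan3a, a tetraspanin of cell membranes (r = 0.97), ISCA2, which serves iron-sulfur cluster assembly in mitochondria (0.97), and ndufa4, a subunit of the respiratory chain (0.95). For gm2a they were MIS12, a kinetochore protein (0.97), dap1b (0.96) and the glycosyltransferase B3GNT1 (0.95). For arsa they were si:dkey-246e1.3 (0.97), FGFBP3, a carrier of fibroblast growth factors (0.95), and C3H1orf68 (0.94). All 9 of these had more counts in the sponge-29 group, from 0.37 (B3GNT1) to 0.70 (C3H1orf68) as a log2 fold change. For gaa the closest were the centrosome and cilium protein ALMS1 (0.98) and the axonemal dynein chain DNAH8 (0.98). Both had fewer counts in the sponge-29 group, with values of -0.35 and -0.66 on the same scale, so these followers of gaa from fish to fish differed between groups in the opposite direction. Each gene is the closest of very many over few libraries, all genes with a symbol come from the study's lists of changed genes, and no test was made.

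Other genes of the lysosome could be followed only where the study pairs a symbol with an identifier, which it does for genes it listed as changed. Of 178 symbols in 5 lists, 17 identifiers were found, 4 of them the genes above. The other 13 had a median log2 fold change of 0.37, against -0.01 over all genes tested, and 10 of them were called higher and 1 lower (edgeR's quasi-likelihood test, background 6.15% and 5.84%). These counts were largely fixed by that choice and are not independent evidence. Of the 55 symbols listed as lysosomal hydrolases and activators, none besides arsa, gm2a and gaa had an identifier. The study thus did not list the others as changed under these symbols, which gives no value for them. Listed enzymes that act next to arsa and gm2a could therefore not be described, and hydrolases under other symbols were not searched for.

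Of the proton pump that acidifies the lysosome (V-ATPase), the subunits atp6v1g1 and atp6v1c1a and the accessory protein atp6ap2 were called higher. The largest of these was atp6ap2, with 259 ± 9.52 CPM in wild-type and 365 ± 35.1 CPM in sponge-29 (SD, n = 4). Its log2 fold change was 0.49 (standard error 0.08). Of the genes for transport to lysosomes, ap3m2 and ap3s2, subunits of the AP-3 adaptor, and the late endosomal GTPase rab7 were called higher, at 0.38, 0.36 and 0.36 on the log2 scale. The calls of atp6v1g1 and ap3s2 were not kept with the length trend removed, where their log2 fold changes were 0.31 and 0.35, nor in 7 and 6 of the 8 fits that leave out a library. The summed CPM of the 3 pump genes ran from 553 to 603 in wild-type and from 689 to 841 in sponge-29. That of the 3 transport genes ran from 158 to 166 and from 194 to 228. These sums cover 3 of 20 pump symbols and 3 of 43 transport symbols, those listed as changed, so their direction was fixed by that choice.

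The membrane proteins did not share 1 direction. The gene lmbrd1, whose protein serves cobalamin export from the lysosome, was higher, with 69.4 ± 3.61 CPM against 92.5 ± 6.89 CPM (log2 fold change 0.41, standard error 0.07). The value of scarb2, the receptor that carries glucocerebrosidase to the lysosome in mammals, pointed the other way, with 284 ± 72.3 CPM in wild-type and 189 ± 31.1 CPM in sponge-29. Its log2 fold change was -0.59 with a standard error of 0.20. It did not pass the threshold (adjusted p = 0.0795 in edgeR), and its groups overlapped. It was called in 2 of 9 alternatives of tool, scaling, filter, unit and gene length, and in 1 of 8 fits that leave out a library.

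Of the autophagy list, gabarapl2, gabarapa and optn were called higher and ulk1b lower. The ubiquitin-like proteins gabarapl2 and gabarapa sit on the autophagosome and had log2 fold changes of 0.46 and 0.37. The cargo receptor optn had 19.0 ± 3.56 CPM in wild-type and 37.1 ± 12.5 CPM in sponge-29. This is the largest log2 fold change of the lists, 0.96 with a standard error of 0.24, but its groups overlapped. The cargo receptor sqstm1 had 0.49 with a standard error of 0.15 and was not called (adjusted p = 0.0606 in edgeR). It was called in 2 of 9 alternatives of tool, scaling, filter, unit and gene length, and in 1 of 8 fits that leave out a library. The kinase ulk1b, which starts autophagosome formation, went from 43.5 ± 2.70 CPM in wild-type to 30.3 ± 6.05 CPM in sponge-29, or -0.52 on the log2 scale (standard error 0.14). Its call was not kept with the length trend removed and was kept in 2 of 8 fits that leave out a library, those without library 46 or 48. The call of optn was likewise kept in 2 of these 8, without library 43 or 48.

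**Figure D5:**
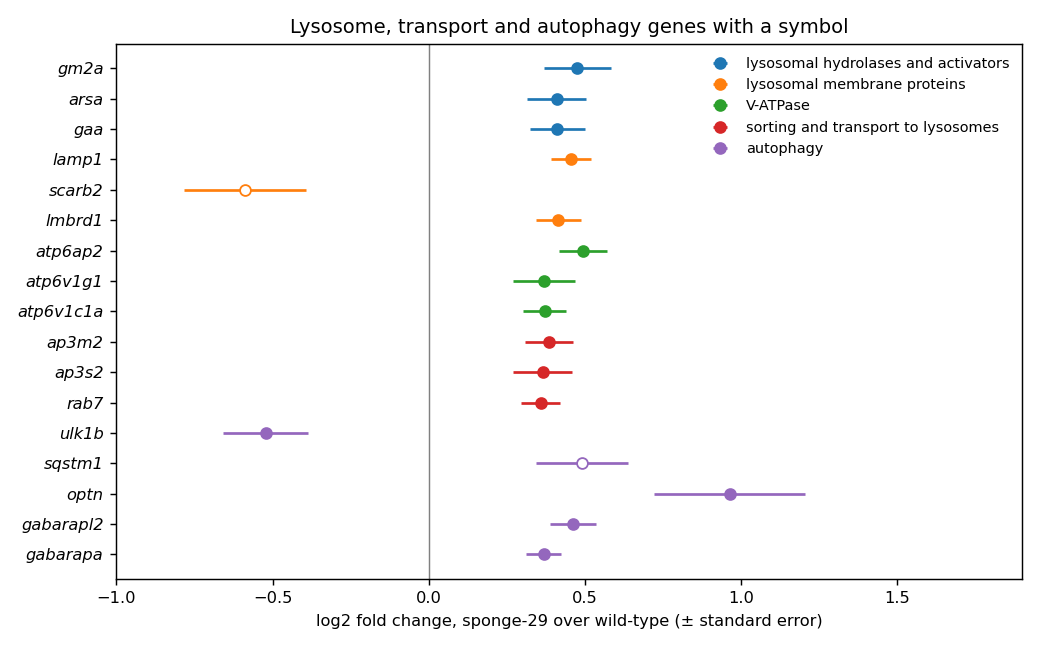
Log2 fold change of sponge-29 over wild-type with its standard error for the 17 genes of the lists that have an identifier, coloured by list, with open points for genes not called. The values of scarb2 and ulk1b lie left of 0 and the other 15 right of it.

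Of 78 symbols fixed as cell type markers, 4 have an identifier. They too come from the study's list of changed genes, so their directions and calls were largely set by that choice and are not independent evidence on cell composition. Of 19 neuronal symbols, snap25a, stmn2a and nefl have an identifier, and their summed level was 424 to 561 CPM in wild-type and 634 to 707 CPM in sponge-29. The neuronal genes snap25a, with a log2 fold change of 0.49, and stmn2a, with 0.40, were called higher, as were 6.15% of all genes. The value of nefl was 0.68 and did not pass (adjusted p = 0.0618 in edgeR). It was called in 3 of 9 alternatives of tool, scaling, filter, unit and gene length, and in 1 of 8 fits that leave out a library. The paper also lists nefl as a predicted miR-29 target that was higher in sponge-29. The part of this in its value and in the sum was not tested. Of 14 symbols of oligodendrocytes and myelin, the cells that hold much of the sulfatide that arsa acts on, sox10 has an identifier. It was called higher, with 38.2 ± 4.06 CPM in wild-type and 52.2 ± 5.43 CPM in sponge-29, and its log2 fold change was 0.45 (standard error 0.10). The calls of sox10 and stmn2a were each kept in 3 of 8 fits that leave out a library, and that of snap25a in 6. None of the symbols fixed for microglia and macrophages, cells rich in lysosomes, for astroglia or for blood and vessels has an identifier (0 of 20, 0 of 14 and 0 of 11). The study thus did not list these markers as changed under these symbols. Their values could not be followed, so these cell types were not analysed here. The part of cell composition in the values of the 4 lysosomal genes was not tested.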

How the data were processed

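RNA-seq single reads from whole brain were mapped by the authors with TopHat 2.0.6 and counted on genes with featureCounts 1.4.3-p1. The authors deposited whole-number counts of 23546 genes without normalization, and RPKM values of the same genes, which they scaled to gene length and to the total count of each library. Gene lengths were recovered from the ratio of both tables. The rules for strand and for reads that map to several genes, and the genome build by name, are not given in the sources used here. The study's own fold changes and p-values were not used.

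Counts were analysed in R 4.3.3 with edgeR 4.0.16. Genes with low counts were removed with filterByExpr (minimum count 10), leaving 19536 genes. Libraries were scaled by TMM, and sponge-29 was set against wild-type in the quasi-likelihood test. Its p-values were adjusted by Benjamini-Hochberg, with a threshold of 0.05. The standard error is the log2 fold change divided by the root of F. In simulated counts with 200 changed genes among 19407, this fit recovered 115 and made 6 false calls. The changed genes had a median log2 fold change of 0.996 in the simulated direction, larger than that of any of the 4 genes. Recovery of changes as small as theirs was not measured. Log2 CPM used a prior count of 2.

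The 4 genes and the lists of further genes were chosen with earlier results of these data known. Named genes are the 4 members, every gene of 5 lysosome-related lists and of 5 cell type marker lists that the study pairs with an identifier, and the 3 genes whose deviations follow each member most closely. The result for 1 gene that this rule names is not reported here. None of the identifiers (0) matched the RefSeq gene table, so symbols are those that the study pairs with 1418 identifiers. DESeq2 1.42.0, limma 3.58.1, other scalings and filters, removal of the gene length trend (natural spline, 4 degrees of freedom) and each library left out in turn served as alternatives. Figures were drawn with matplotlib 3.10.9.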

Additional observations from a re-analysis of the deposited data

How the results depend on the processing

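The log2 fold changes of arsa, gm2a, lamp1 and gaa stayed positive and within 1 SD of the replicates under all 9 alternatives of tool, scaling, filter, unit and gene length, between 0.34 and 0.48. All 4 genes were called in each of these, except arsa with the gene length trend removed. The genes were chosen on this same contrast, so these calls are not independent evidence. The number of genes called was 2341, against 3791 with DESeq2 and 1529 with the length trend removed, and with single libraries left out it lay between 427 and 2125. With single libraries left out, from 1 to 4 of the 4 lysosomal genes were called. Of the other 13 list genes, 10 were called higher, 8 with the length trend removed or on log2(RPKM + 0.1), 7 on log2(RPKM + 1) and from 4 to 9 with libraries left out, while 1 was called lower, 2 with edgeR's likelihood ratio test or DESeq2, 0 with the length trend removed and from 0 to 1 with libraries left out. Fits without a library hold fewer fish. With CPM in place of RPKM, the percent of genes with a lower level was 62.5 for arsa, 50.6 for gm2a and 93.1 for lamp1. It was 66.3 for gaa, so the order of the soluble proteins was reversed, since CPM does not correct for length. The within-group SD lay between 0.0825 and 0.138 for arsa, and between 0.0569 and 0.0888 for lamp1, with libraries left out. The median r over the pairs of genes was -0.35, and from -0.42 to -0.16 with libraries left out. No paired analysis was possible because the labels give no replicate numbers that groups share. Depth limits gm2a most, with at most 268 reads per library.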

Other observations

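A pattern noticed after the values were seen concerns the soluble proteins together. The summed normalized counts of arsa, gm2a and gaa varied less than those of each alone. Between deviations of gaa and arsa, r was -0.82 in wild-type and -0.47 in sponge-29. Between gaa and gm2a, r was -0.08 and -0.92. Over both groups, with group means removed, r was -0.62 for gaa with arsa and -0.63 for gaa with gm2a. With the length trend removed, these became -0.16 and -0.80. The sum was 49.4 ± 0.381 CPM in wild-type and 66.2 ± 1.33 CPM in sponge-29 (SD, n = 4). This gives coefficients of variation of 0.772% and 2.01%, against 10.2% and 6.46% for arsa alone. Those of gm2a were 6.93% and 10.1%, and those of gaa 6.97% and 9.23%. A sum of several genes tends to vary less than its parts even where these vary independently. Both coefficients of the sum are below the counting error of the summed reads, which was between 2.69% and 3.04%. Counts of this depth cannot resolve so small a spread between fish. No test was made of this, and nothing is read from it.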
